A study of Brassica rapa with 12 samples.

Results

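Of the 28846 genes tested in whole Chinese cabbage plants (Brassica rapa), 47 carried many reads at 22 °C and carried between 12.5% and 50% of that level after heat in both genotypes. Levels are given as CPM, counts scaled to a shared library size after edgeR's TMM factors had adjusted each library's total. A member had a mean of at least 200 CPM at 22 °C in gi and in Chiifu, and a mean at 37 °C of at most 50% of, but more than 12.5% of, its mean at 22 °C in each. The members were thus chosen by their heat changes and their levels at 22 °C, which are given below as a description, with no test. The choice set no limit on the difference between gi and Chiifu at one temperature, and these comparisons are tested. They are not free of the choice, since its limits hold a member's difference at 37 °C within 2 log2 units of that at 22 °C. This limits the difference that can be found at 37 °C.

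The 4 groups were gi plants, a GIGANTEA-edited line, after 1 h at 37 °C, gi plants at 22 °C, wild-type Chiifu plants after 1 h at 37 °C and Chiifu plants at 22 °C, with 3 libraries each. All plants were 2 weeks old and had been grown on 1/2 MS medium, and gi has the cultivar Chiifu as its background. The labels list gi as late and Chiifu as early flowering. They give neither the edit itself nor the number of edited lines, and they do not say whether a library holds 1 plant or several or whether replicates were separate cultures. P-values therefore measure the spread between these libraries, which may be technical.

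A short heat shock is known in plants to switch on heat shock transcription factors and the chaperone genes under them, while many transcripts of growth and housekeeping decline through less transcription or faster decay. GIGANTEA acts in the plant clock and in the timing of flowering by day length. CPM is a relative measure. A gene's share of the counts also falls when others take up more of the reads, which the TMM factors are meant to offset. How fully they did so was not tested. In whole plants, fewer cells of a type and less RNA per cell cannot be told apart.

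None of the 47249 gene IDs matched the reference gene table at hand, so the members are given by ID alone. Their products and pathways, the GIGANTEA gene and lists of marker genes were not analysed here, no sequence is shown, and the genotypes rest on the labels. Without transcript lengths, CPM can be compared between groups for 1 gene but not between genes. Each library held between 36778289 and 57777477 reads counted in genes.

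Chiifu at 22 °C replicate 1 stood apart in the members as it did in the 326 other genes that reached 200 CPM at 22 °C in both genotypes, called other abundant genes here. In that library 18 members lay at least 2-fold above and 7 at least 2-fold below the mean of the other 2 libraries of its group, 53.2% of the members. Of the 326 other abundant genes 105 were above and 65 below, which is 52.1%. In the other 11 libraries the share of the members ranged from 2.13% to 19.1%. The labels give no reason for this. Results that rest on it are given with and without it below.

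As a set, the 47 members took up 0.661%, 0.752% and 0.801% of a library's gene counts in gi at 37 °C, against 3.62%, 3.69% and 3.34% in gi at 22 °C. In Chiifu they took up 0.649%, 0.602% and 0.664% at 37 °C, against 3.88%, 3.22% and 3.07% at 22 °C. The 6 libraries at 37 °C lay close together and below all 6 at 22 °C. On the TMM scale the summed level of the members was 9106 ± 617 CPM (SD, n = 3) in gi at 37 °C and 28553 ± 2709 CPM at 22 °C. In Chiifu it was 8919 ± 933 CPM at 37 °C and 24827 ± 5536 CPM at 22 °C. The other abundant genes also lost share, with a mean of 17.8% of gene counts in gi at 37 °C against 29.5% at 22 °C. Their mean share in Chiifu was 18.7% at 37 °C against 26.0% at 22 °C. On the TMM scale their summed level was 222297 ± 40566 CPM in gi at 37 °C and 237109 ± 21048 CPM at 22 °C. For Chiifu this sum was 261564 ± 32452 CPM at 37 °C and 190393 ± 50744 CPM at 22 °C, so it did not follow the share. Share and CPM differ by the TMM factors. The mean factors were 0.816 (gi) and 0.719 (Chiifu) at 37 °C, against 1.25 and 1.39 at 22 °C. None of the members was among the 100 genes with the most CPM in any library at 37 °C, while 12 to 13 were in the gi libraries at 22 °C and 10 to 14 in the Chiifu libraries at 22 °C.

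**Figure D1:**
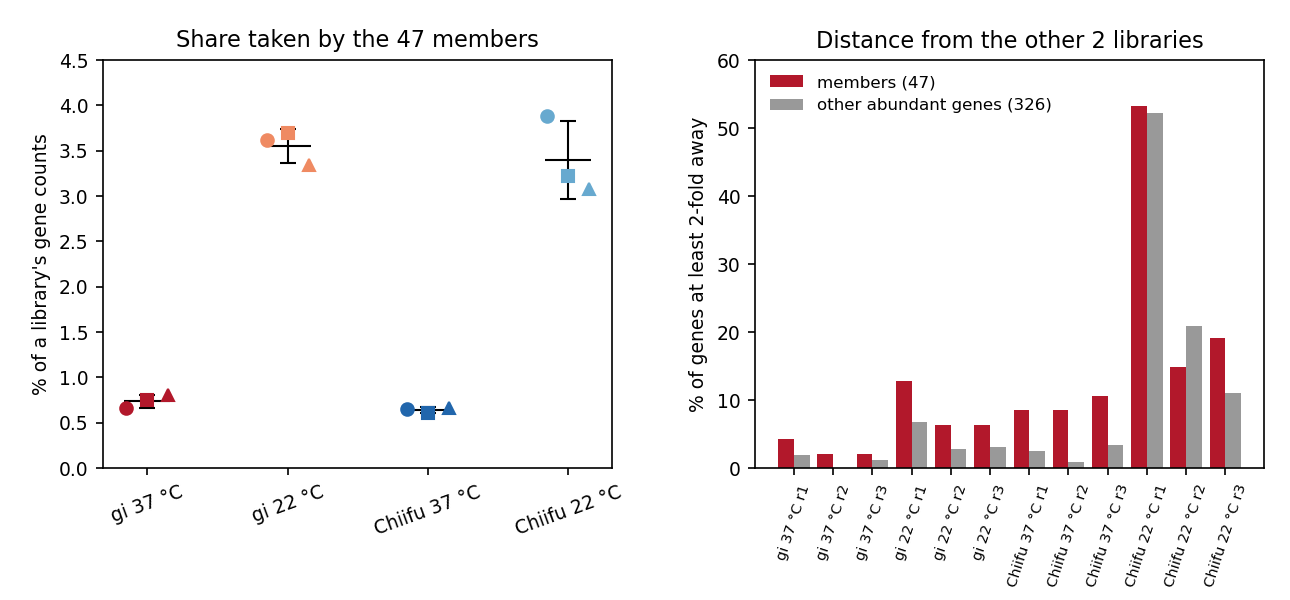
Left, the percentage of each library's gene counts taken by the 47 members, with circle, square and triangle for replicates 1, 2 and 3 and a black bar for the mean ± SD of 3 libraries; values are 0.602% to 0.801% at 37 °C and 3.07% to 3.88% at 22 °C. Right, for each library, the percentage of members (red) and of the 326 other abundant genes (grey) that lay at least 2-fold from the mean of the other 2 libraries of its group on a log2 scale; Chiifu at 22 °C replicate 1 reaches 53.2% and 52.1%.

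The falls covered much of the range the choice allowed. In gi at 37 °C, 24 members were 2- to 3-fold lower than at 22 °C, 10 were 3- to 4-fold lower and 13 were 4- to 8-fold lower, with a median log2 ratio of means of -1.56. In Chiifu the counts were 32, 8 and 7, with a median of -1.32, which was -1.25 without Chiifu at 22 °C replicate 1. Only 25 members lay in the same size class in both genotypes, 19 of them at 2- to 3-fold, 2 at 3- to 4-fold and 4 at 4- to 8-fold. Over all genes tested the medians were -0.07 in gi and -0.10 in Chiifu. Across the 47 members the log2 ratio and the log2 level at 22 °C had a Pearson's r of -0.02 in gi and -0.01 in Chiifu. This is a description over genes that share the same libraries. The choice limited both values, and the ratio is taken over the level at 22 °C, so nothing is read from it about level and fall.

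A mean of at least 200 CPM at 37 °C was kept by 15 members in gi and 13 in Chiifu, and by 11 in both. Mean levels ran from 39.5 to 699 CPM in gi at 37 °C and from 200.4 to 2139.9 CPM in gi at 22 °C. In Chiifu they ran from 35.4 to 668 CPM at 37 °C and from 201.6 to 2310.2 CPM at 22 °C.

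The 3 libraries at 37 °C lay below the 3 at 22 °C for 44 of the 47 members in gi, where this held for 27.3% of all genes tested. In Chiifu it held for 37 members and for 23.9% of all genes. It held in both genotypes for 34 members. The edgeR quasi-likelihood test with Benjamini-Hochberg adjustment called 38 members lower in gi and 34 in Chiifu, beside 14.2% and 16.5% of all genes tested. These counts follow from the choice of the members and nothing is read from them.

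**Figure D2:**
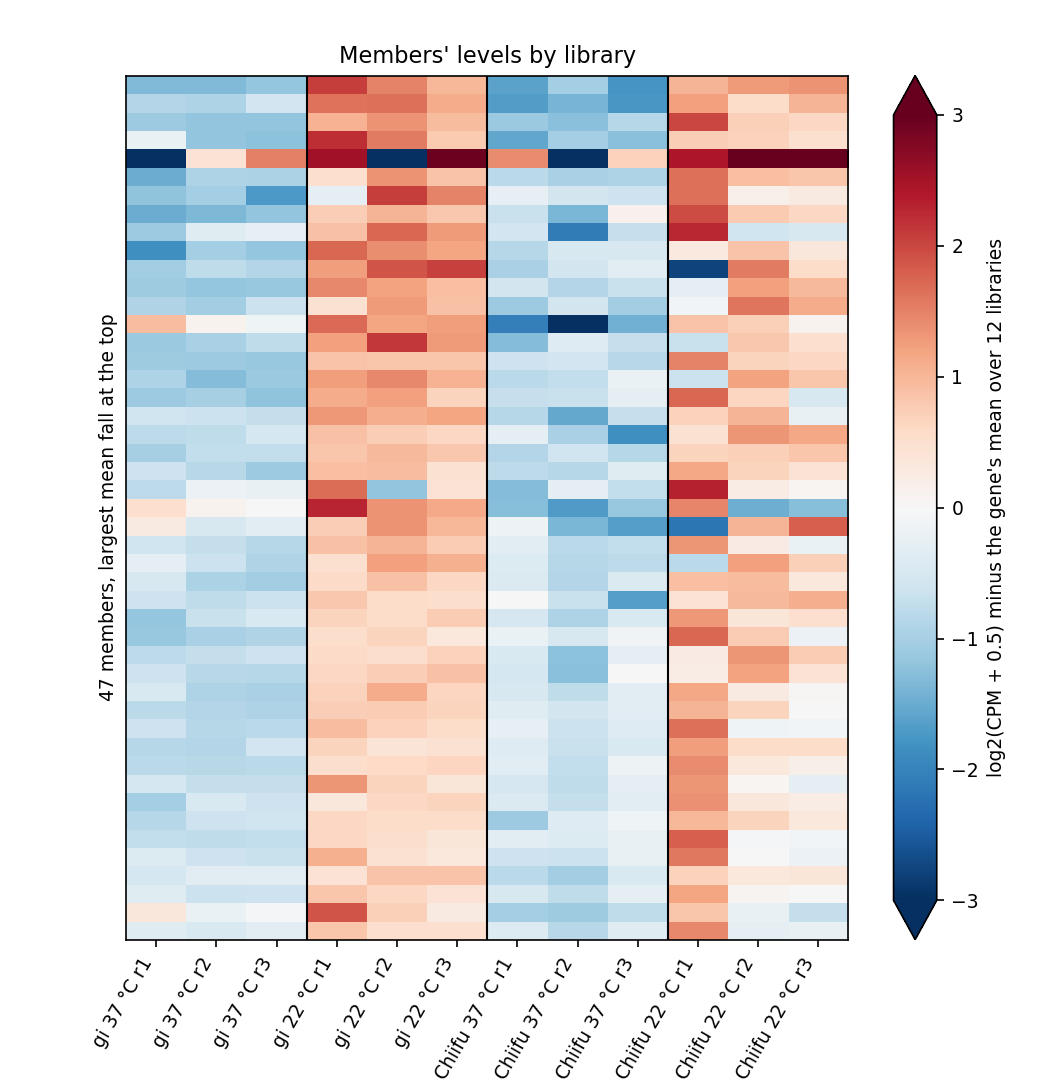
Each row is 1 of the 47 members and each column 1 library (r1 to r3 are replicates), coloured by log2(CPM + 0.5) minus the gene's mean over the 12 libraries; colours stop at 3 log2 units either way. The columns at 37 °C are mostly blue and those at 22 °C mostly red, with Chiifu at 22 °C replicate 1 uneven and 1 row (BraA03g040670.3.5C) near 0 CPM in 3 libraries.

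BraA10g009810.3.5C, on chromosome A10 by its ID, had the highest mean CPM of the members at 22 °C. Its level was 652, 665 and 780.1 CPM in gi at 37 °C, against 2071, 1891 and 1728 CPM in gi at 22 °C. In Chiifu it was 938, 572 and 317 CPM at 37 °C, against 1555, 2843 and 2532 CPM at 22 °C. The groups did not overlap in either genotype, and the gi libraries were close to each other while those of Chiifu at 37 °C spread widely. Of its level at 22 °C, 36.9% was left in gi and 26.4% in Chiifu.

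A second member, BraA10g009950.3.5C, was singled out after its values were seen. It had 670.1, 606 and 657 CPM in gi at 37 °C, against 1793, 1498 and 1491 CPM in gi at 22 °C. In Chiifu it had 1023, 648 and 326 CPM at 37 °C, against 1396, 2020.4 and 2205 CPM at 22 °C. Both genes were highest in replicate 1 and lowest in replicate 3 of Chiifu at 37 °C, and both were lowest in replicate 1 of Chiifu at 22 °C. By their IDs 13 listed genes lie between them, the closest pair of members. Whether their reads come from near-identical copies was not tested.

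BraA05g033800.3.5C, on A05, had the largest mean fall over both genotypes. It had 38.1, 38.1 and 42.4 CPM in gi at 37 °C, against 407, 271 and 191 CPM in gi at 22 °C. In Chiifu it had 31.3, 47.2 and 27.8 CPM at 37 °C, against 194, 234 and 244 CPM at 22 °C. Its levels after heat were low and close in all 6 libraries, while the gi libraries at 22 °C differed more than 2-fold. The level left was 13.7% in gi and 15.8% in Chiifu, the lowest of the members in each genotype.

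The limits of the choice cut through a continuous range. On the level at 22 °C, the lower of a gene's 2 means was 200.4 CPM for the member nearest the limit and 193 CPM for the nearest gene outside it. On the upper limit of 50%, the nearest values were 49.9% inside and 51.3% outside in gi, and 49.03% and 50.1% in Chiifu. At the lower limit of 12.5%, the values nearest it were 13.7% inside and 12.1% outside in gi, and 15.8% inside in Chiifu, where no otherwise eligible gene lay beyond it.

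Of the 373 genes that reached 200 CPM at 22 °C in both genotypes, 103 met the limits on the fall in gi and 51 in Chiifu. The 47 members are 45.6% of the gi list and 92.2% of the Chiifu list, so 56 genes met the limits in gi alone and 4 in Chiifu alone. Of the 56, 17 were not lower at all in Chiifu at 37 °C. All of the 4 were lower in gi too. BraA01g001970.3.5C and BraA04g027710.3.5C fell beyond the limits there, with log2 ratios of -3.05 and -3.55. BraA01g000890.3.5C and BraA03g050050.3.5C fell too little in gi, with -0.96 and -0.61. Without Chiifu at 22 °C replicate 1 the counts of genes in 1 genotype alone were 54 and 6, without replicate 3 of that group 40 and 17, and when scaled by total counts 75 and 44. The difference between the counts was not tested.

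**Figure D3:**
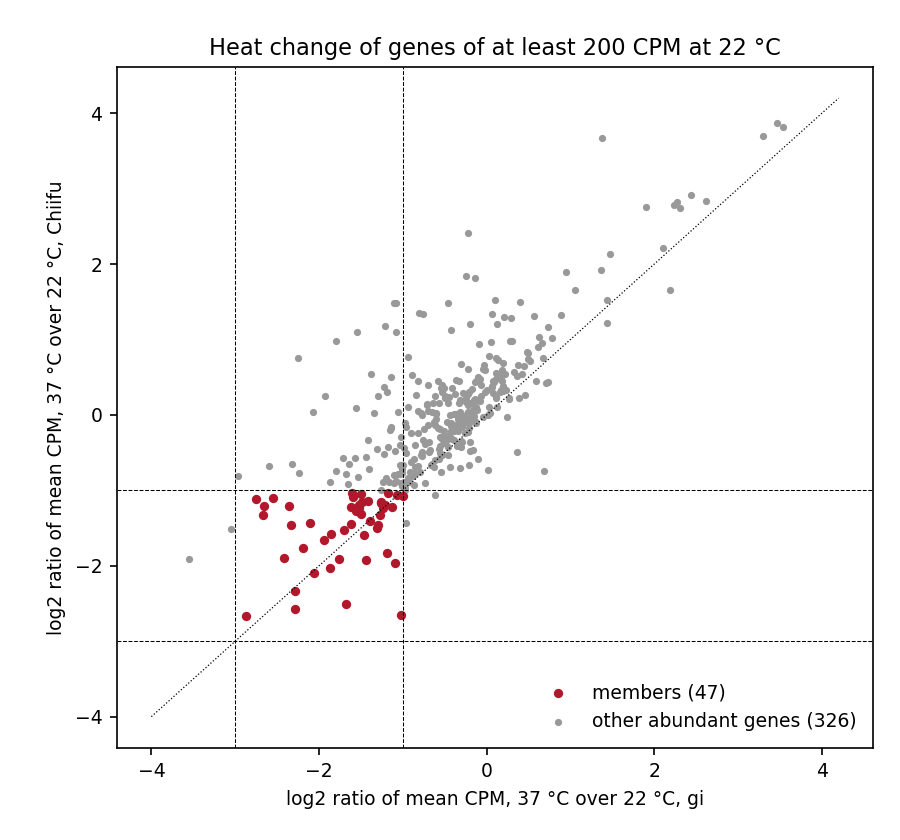
Each point is 1 of the 373 genes that reached a mean of 200 CPM at 22 °C in both genotypes, placed by its log2 ratio of mean CPM, 37 °C over 22 °C, in gi (horizontal) and Chiifu (vertical). Dashed lines mark the limits of the choice, the dotted line equal change; the 47 members (red) fill the box between the limits, and 56 grey points lie within the gi limits but outside those of Chiifu.

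Among the members, 30 had the larger decrease in gi and 17 in Chiifu. The median difference of the log2 heat changes, gi minus Chiifu, was -0.17 for the members, -0.35 for the 326 other abundant genes and 0.01 over all genes tested. The sign of the members' median depends on the scaling and on single libraries. With total counts the median of the members was 0.14, with the larger decrease in gi for 14 members, and the median of all genes was 0.34. Without Chiifu at 22 °C replicate 1 the median of the members was -0.50, and without replicate 3 of that group it was 0.05. For 33 members the 2 heat changes were under 0.5 log2 units apart, and for 6 at least 1 unit, 5 of them with the deeper fall in gi.

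The limits bound this difference to within 2 log2 units, so it is a description. The edgeR interaction called 0 of the 47 members, beside 0.118% of all genes tested, and 3 had an unadjusted p under 0.05, beside 10.2% of all genes. DESeq2 called 1, BraA03g029360.3.5C, beside 1.96% of the genes it tested. Nothing is read from these counts.

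BraA03g029360.3.5C, on A03, had the most negative difference between the heat changes. It had 39.1, 70.0 and 63.7 CPM in gi at 37 °C, against 470, 373 and 325 CPM in gi at 22 °C. In Chiifu it had 78.9, 102.3 and 102.2 CPM at 37 °C, against 174, 259 and 180.4 CPM at 22 °C. The 3 gi libraries lay below the 3 Chiifu libraries at 37 °C and above them at 22 °C. The log2 heat change was -2.76 in gi and -1.11 in Chiifu, a difference of -1.64.

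BraA07g041960.3.5C, on A07, had the most positive difference. It had 602, 339 and 288 CPM in gi at 37 °C, against 1027, 712 and 758 CPM in gi at 22 °C. In Chiifu it had 75.7, 33.4 and 117 CPM at 37 °C, against 568, 514 and 338 CPM at 22 °C. All gi libraries lay above all Chiifu libraries at each temperature. The log2 heat change was -1.02 in gi and -2.65 in Chiifu, a difference of 1.63.

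**Figure D4:**
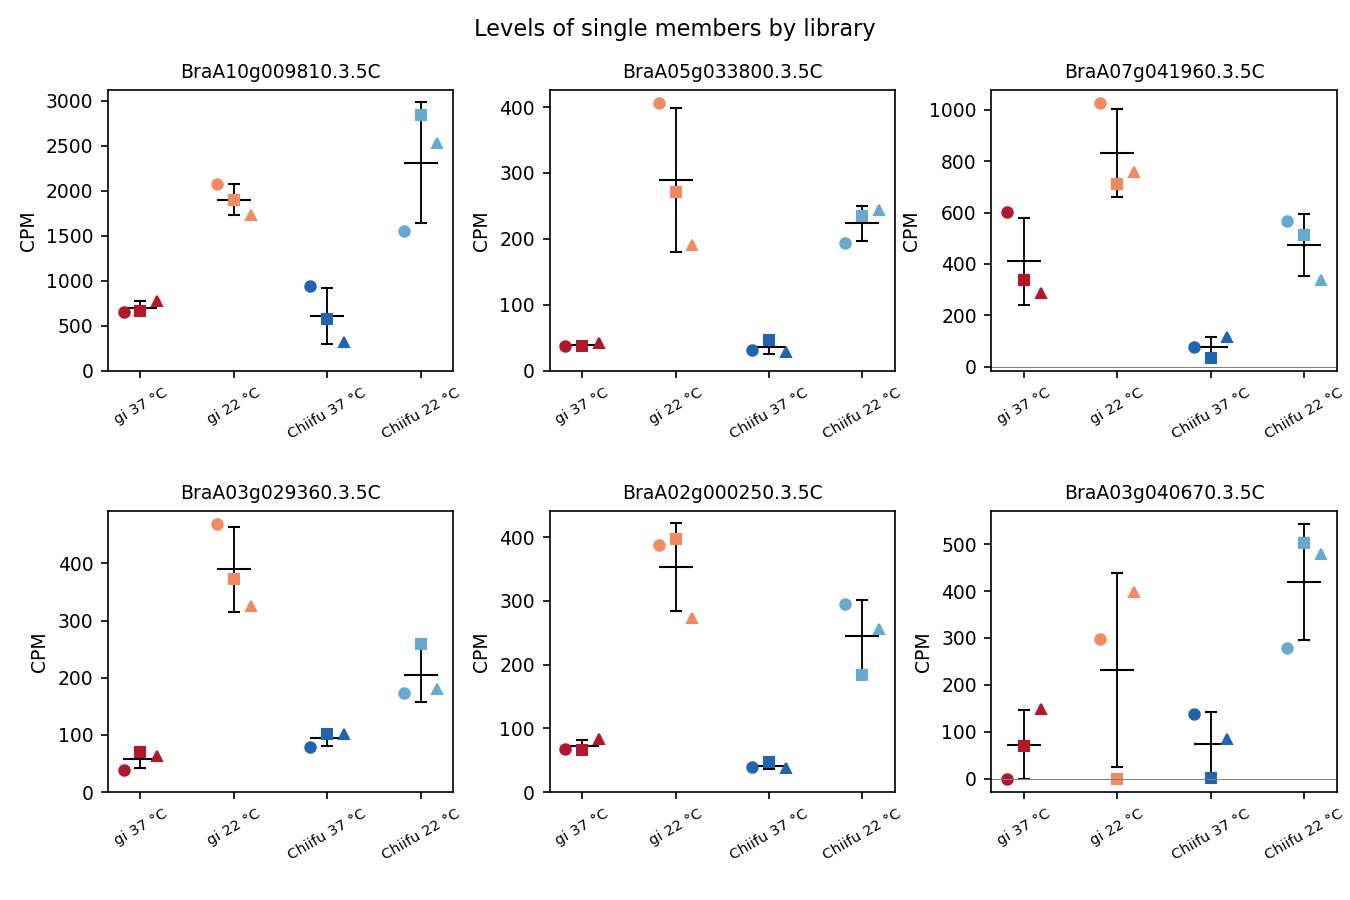
CPM of 6 members in each library of the 4 groups (circle, square and triangle are replicates 1, 2 and 3), with a black bar for the mean ± SD of 3 libraries. In BraA07g041960.3.5C the gi libraries at 37 °C (288 to 602 CPM) lie above those of Chiifu at 37 °C (33.4 to 117 CPM), and BraA03g040670.3.5C is at or near 0 in 3 libraries.

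The genotype comparison at 37 °C asked whether heated gi and Chiifu plants differed in the members. BraA07g041960.3.5C was higher in gi, with 409.7 ± 168 CPM in gi and 75.2 ± 41.6 CPM in Chiifu at 37 °C (SD, n = 3 each), a log2 difference of 2.45 (SE 0.46, edgeR adjusted p = 0.0208). It was the 1 member called of 47, beside 2.7% of all genes tested, of which 1.29% were higher in gi. Its adjusted p ranged from 1.21e-06 with DESeq2 to 0.0807 in edgeR without Chiifu at 37 °C replicate 1. It was not called without gi at 37 °C replicate 1 (0.0697) or replicate 2 (0.0509) either, and with the replicate number as a block it was 0.0356. At 22 °C the same gene did not pass in edgeR (log2 difference 0.81, SE 0.43, adjusted p = 0.414).

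DESeq2 called this gene and BraA02g000250.3.5C, 2 of 47, both higher in gi. It called 10.5% of the genes it tested in either direction, and 5.19% higher in gi. BraA02g000250.3.5C, on A02, had 68.2, 66.0 and 83.5 CPM in gi at 37 °C, against 38.8, 47.4 and 37.2 CPM in Chiifu at 37 °C. At 22 °C it had 387, 398 and 274 CPM in gi, against 295, 183 and 256 CPM in Chiifu. The groups did not overlap at 37 °C and did at 22 °C. Its log2 difference at 37 °C was 0.82 (SE 0.23) and missed the threshold in edgeR (adjusted p = 0.0827).

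At 37 °C the gi libraries lay wholly above the Chiifu libraries for 4 members and wholly below them for 10. The 4, named after their values were seen, were BraA07g041960.3.5C, BraA02g000250.3.5C, BraA07g026000.3.5C and BraA08g024080.3.5C. Among all genes tested this held for 15.3% in each direction. For the 326 other abundant genes the shares were 7.36% above and 23.3% below. The log2 difference was positive for 15 members and negative for 32, with a median of -0.12, but with total counts 27 were positive and 20 negative. The median was -0.23 without Chiifu at 37 °C replicate 2 and -0.05 without replicate 3 of that group. Over all genes the median was 0.16 with total counts and -0.02 with TMM. The difference was under 0.5 log2 units for 36 members and at least 1 unit for 3.

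At 22 °C edgeR called 0 of the 47 members between gi and Chiifu, beside 1.01% of all genes tested. An unadjusted p under 0.05 was found for 4 members, all higher in gi. This held for 15.1% of all genes tested in either direction, and for 7.14% higher in gi. For the other abundant genes the shares were 9.2% and 8.28%. DESeq2 called 2 members, both higher in gi, beside 5.46% of the genes it tested in either direction and 2.42% higher in gi. These were BraA03g029360.3.5C, with the values above (log2 difference 0.93, SE 0.27, edgeR adjusted p = 0.146, DESeq2 adjusted p = 0.0218), and BraA07g042830.3.5C. The second had 577, 1062 and 591 CPM in gi at 22 °C, against 155, 430.0 and 348 CPM in Chiifu at 22 °C (log2 difference 1.26, SE 0.39, edgeR adjusted p = 0.179, DESeq2 adjusted p = 0.0368). Its gi libraries lay above all Chiifu libraries at 22 °C, and at 37 °C the groups overlapped. Without Chiifu at 22 °C replicate 1 edgeR called 3 members at 22 °C, all higher in gi, beside 2.46% of the genes then tested, and neither of these genes was among them. A missed threshold does not show that the members were alike in the 2 genotypes.

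The gi libraries lay wholly above the Chiifu libraries for 5 members at 22 °C and wholly below for 0, beside 9.76% and 10.7% of all genes tested. The 326 other abundant genes were skewed the same way, with 8.59% above and 1.53% below. These 5, also named after their values were seen, were BraA03g029360.3.5C, BraA05g033150.3.5C, BraA07g009410.3.5C, BraA07g041960.3.5C and BraA07g042830.3.5C. The log2 difference at 22 °C was positive for 26 members and negative for 21, with a median of 0.10. With total counts 20 were positive and 27 negative, with a median of -0.03. The median of all genes moved as well, from -0.02 with TMM to -0.17 with total counts. Single libraries decided the sign of the members' median with TMM, which was 0.35 without Chiifu at 22 °C replicate 1 and -0.12 without replicate 3 of that group. Of the 26 members that were higher in gi at 22 °C, 14 were lower in gi at 37 °C and 12 higher. Of the other 21, 18 were lower in gi at both temperatures and 3 turned. Across the 47 members the 2 genotype differences had a Pearson's r of 0.40 and a Spearman's rho of 0.25. They share no libraries, but the limits on the fall hold them within 2 log2 units of each other, so nothing is read from this.

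**Figure D5:**
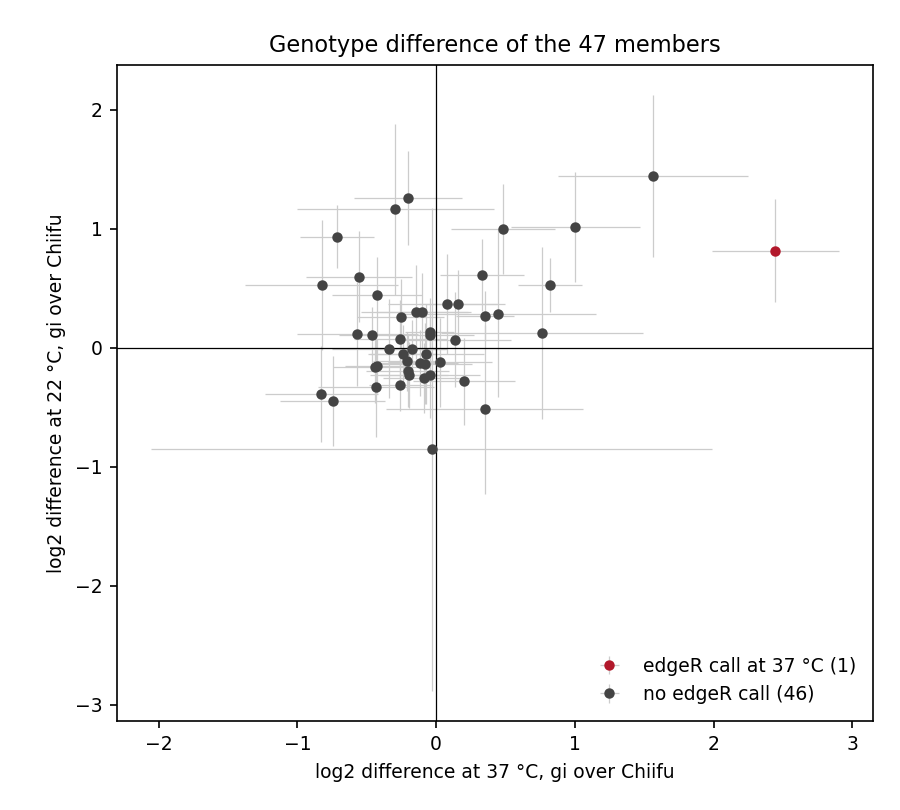
The log2 difference between gi and Chiifu (edgeR) of each member at 37 °C (horizontal) and at 22 °C (vertical), with grey bars of 1 standard error. The 1 member called at 37 °C (red) lies at 2.45, and 36 members lie within 0.5 of 0 at 37 °C.

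The replicates of a group were closest for the members in gi at 37 °C. The median coefficient of variation of the members was 10.9% in gi at 37 °C, 16.2% in gi at 22 °C, 17.9% in Chiifu at 37 °C and 46.6% in Chiifu at 22 °C. For the other abundant genes the medians were 16.2%, 17.4%, 18.7% and 44.5% in the same groups. Without replicate 1, the median in Chiifu at 22 °C was 10.3% for the members and 12.8% for the others. The choice of the members rests on the means of these 3 libraries. Without Chiifu at 22 °C replicate 1 the same limits gave 38 genes, of which 26 were among the 47.

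BraA03g040670.3.5C, on A03 and singled out after its values were seen, was nearly absent from 3 libraries. It had 0, 69.9 and 148 CPM in gi at 37 °C, against 297, 0.137 and 398 CPM in gi at 22 °C. In Chiifu it had 138, 0.768 and 83.9 CPM at 37 °C, against 278, 503 and 479 CPM at 22 °C. The low libraries held 0, 8 and 25 counts and belong to 3 of the 4 groups, so its group means in 3 groups average libraries with the gene and 1 nearly without it. At a floor of 3 counts the library with 0 counts allows up to 0.0771 CPM, for counting error only. In the 9 other libraries the levels at 37 °C (69.9 to 148 CPM) lay below those at 22 °C (278 to 503 CPM).

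The members were spread over all 10 chromosomes named in the IDs. Chromosome A03 held 9 of them (19.1%, against 14.7% of all genes tested), A09 held 8 (17.0%, against 14.3%) and A04 held 1 (2.13%, against 6.71%). Of the 37 pairs of members that follow each other on a chromosome, 4 had under 50 listed genes between them, 3 of these on A09 and 1 on A10. Positions were read from the numbers in the IDs, and no genome was used to check them.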

How the data were processed

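Per the labels' protocols, messenger RNA of whole plants was made into 12 stranded libraries. For each library the authors deposited raw counts per gene as whole numbers. The submitters' processing notes name FastQC, TopHat2, HTSeq and edgeR. The build, annotation and strand setting are not given in the sources used here. The 5 closing rows of each table, for reads given to no gene (8.37% to 10.1% of reads other than those not aligned), were left out.

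The main test was edgeR 4.0.16 (R 4.3.3). Genes passing filterByExpr (minimum count 10, minimum total 15) were kept, and all 47 members passed. CPM used all gene counts and TMM factors. All 12 libraries entered 1 robust quasi-likelihood fit with a mean for each of the 4 groups, contrasts were tested over the 28846 genes, adjusted by Benjamini-Hochberg and called under 0.05. Standard errors came from the fold change and F. DESeq2 1.42.0, other scalings, no filter, separate temperatures, a replicate block and leaving out each library were alternatives. No 2 libraries of a group agreed within sampling noise (chi-square per degree of freedom 17.5 to 416).

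Libraries with the same replicate number deviated together between gi and Chiifu (correlations 0.271, 0.196 and 0.158 at 22 °C, 0.365, 0.115 and 0.178 at 37 °C), so the numbers were taken to pair them. This comes from the data, since the labels do not say what a number marks. The main fit did not use the pairing, which entered only in the alternatives with a replicate block.

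The members were chosen with earlier results of these data known. Genes were named by a rule: the member with the highest mean CPM at 22 °C, the one with the largest mean fall, up to 2 called and non-overlapping members each way per genotype comparison, and the extreme heat difference each way. Others are marked as singled out, or are those behind a count of 5 or fewer.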

Additional observations from a re-analysis of the deposited data

Results flagged for a closer look

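BraA03g029360.3.5C drew attention because the 3 gi libraries lay above the 3 Chiifu libraries at 22 °C and below them at 37 °C. Its heat change on the log2 scale, gi minus Chiifu, was -1.64. The edgeR interaction, which tests this difference, gave an adjusted p of 0.181, and DESeq2 gave 0.00469. DESeq2 called 1.96% of the genes it tested in the interaction. The rule that chose the members bounds this difference, so nothing is read from these p-values. How many of all genes change sides in this way was not counted.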

How the results depend on the processing

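When libraries were scaled by their total counts, 186 genes met the limits (36 of the 47 among them). The number was 30 with medians in place of means, 86 with a limit of 100 CPM, 20 with 400 CPM, and 38 to 62 without single libraries. DESeq2 size factors gave 44 and no filter 50. A lower or higher CPM limit changes the number by definition. Scaling by total counts moves the heat ratios of all genes, as the next values show. What the differences under the other settings rest on was not tested. The median log2 heat change of the members was -2.18 in gi and -2.26 in Chiifu with total counts, where the medians of all genes moved to -0.69 and -1.05. Relative to all genes it was -1.49 and -1.21, against -1.48 and -1.22 with TMM. Without single libraries it ranged from -1.65 to -1.52 in gi and from -1.54 to -1.25 in Chiifu, and the difference of the heat changes from -0.50 to 0.05, with 0.14 by total counts. All alternatives for that difference were chosen after seeing the data. Between genotypes, DESeq2 called 2 members at 22 °C and 2 at 37 °C (edgeR 0 and 1), and edgeR on only the 6 libraries at 37 °C called 4, beside 5.32% of the genes tested there. Without single libraries it called 0 to 3 at each temperature. The 3 came without Chiifu at 22 °C replicate 1, when 2.46% of all genes were called at 22 °C and 6.78% at 37 °C: BraA02g039450.3.5C, BraA06g006320.3.5C and BraA08g024080.3.5C at 22 °C, and BraA02g000250.3.5C, BraA07g041960.3.5C and BraA08g024080.3.5C at 37 °C, all higher in gi. With the replicate block, which uses the pairing, 0 members were called at 22 °C and 1 at 37 °C, beside 0.534% and 1.88% of all genes. A block within each temperature gave the same counts of members, beside 0.34% and 1.91% of all genes. No call of a member between genotypes changed with either block. On the log2 scale BraA07g041960.3.5C stayed between 2.06 and 2.91 without single libraries. Of the members, 44 had over 1000 counts in every library, so the 3 libraries per group limit the precision of these genes.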

Other observations

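At 22 °C, 4 of the 47 members in gi and 22 in Chiifu had a coefficient of variation over 50% between libraries. The count in Chiifu rests largely on replicate 1. Without it the members' median in that group was 10.3% in place of 46.6%, the upper quartile 24.3% and the highest value 57.3%. The 3 members described here were picked after their values were seen. BraA09g010160.3.5C had 672, 3460.4 and 2288 CPM in gi at 22 °C, against 2563, 906 and 987 CPM in Chiifu at 22 °C, so that replicate 1 was the lowest library in gi and the highest in Chiifu. After heat it had 354, 405 and 248 CPM in gi, against 686, 561 and 535 CPM in Chiifu, and the gi libraries lay below those of Chiifu. BraA01g012640.3.5C had 793, 109.6 and 339.6 CPM in gi at 22 °C, against 1234, 289 and 258 CPM in Chiifu at 22 °C. Replicate 1 was the highest library of both groups. At 37 °C it had 146, 222 and 213 CPM in gi, against 101, 204 and 150.1 CPM in Chiifu, which overlapped. BraA08g024080.3.5C had 2020.4, 1065 and 922 CPM in gi at 22 °C, against 1149.7 CPM in replicate 1 and 151 and 172 CPM in the other Chiifu libraries at 22 °C. At 37 °C it had 587, 449.9 and 413 CPM in gi, against 173, 127 and 189.9 CPM in Chiifu. Over all 12 libraries, neither edgeR nor DESeq2 called any of these 3 genes between genotypes.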
